A study of Mus musculus with 2 samples.

Results

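Fat that a cell does not burn is kept as triglyceride, and 10 genes of that traffic were followed here in cultured mouse glia: the triglyceride-making enzymes Dgat1 and Dgat2, the lipases Pnpla2, Lipe and Mgll, the fatty acid binding proteins Fabp3, Fabp4, Fabp5 and Fabp7, and the fatty acid receptor Cd36. They were taken by gene name from the gene probes of the array, which gave 20 of 41174 probes and 10 of the 21893 genes tested. The genes were chosen by the same oligodendrocyte to astrocyte ratio that is described here, Dgat2 being among the largest, so the values of these 10 genes carry no test. Each of 2 arrays held RNA of primary oligodendrocytes and primary astrocytes of C57BL/6J mice, untreated and of no stated age, with the oligodendrocyte RNA in Cy5 for replicate 1 and in Cy3 for replicate 4. Oligodendrocytes came off mixed glial cultures by shaking; astrocytes were the cells left on the dish, grown on in serum and taken with trypsin after microglia had been shaken off. The series set out to find mRNAs enriched in oligodendrocytes. Its text calls the samples independent, without saying whether replicates 1 and 4 are separate cultures, so the spread and p-values given here are those of 2 arrays and may be technical.

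Both labels matched their markers. All 10 oligodendrocyte markers were higher in oligodendrocytes, with a median log2 ratio of 3.58 (log2 of oligodendrocyte over astrocyte, mean of both arrays, as throughout), and all 9 astrocyte markers stood on the other side, at a median of -3.04. Of all genes tested, 4061 (18.5%) were called higher in oligodendrocytes and 4954 (22.6%) higher in astrocytes by limma at an adjusted p under 0.05. With ratios set to the spike-in probes in place of the typical gene, the median of all genes moved from -0.0040 to -0.71 and the split became 1258 to 18017, so directions are given relative to the typical gene. No gene spot was saturated, and the number of arrays limits the precision.

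Triglyceride is made by adding a fatty acid to diacylglycerol, a step that Dgat1 and Dgat2 carry out with unrelated protein folds, and it is stored in lipid droplets in the cytoplasm. Pnpla2 removes the first fatty acid, Lipe the second and Mgll the last; in brain, Mgll is also the main enzyme that breaks down the endocannabinoid 2-arachidonoylglycerol. Fatty acid binding proteins are small carriers that move fatty acids through the cytosol, and Cd36 takes up long-chain fatty acids and oxidised lipoprotein at the cell surface. Fabp7 is the brain form found in radial glia and astrocytes, Fabp3 the heart and muscle form, Fabp5 the epidermal form, and Fabp4 the form of adipocytes and macrophages.

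The RNA was read by probes of 60 bases. The following 6 are shown because they compare Dgat1 with Dgat2, give the lipases Lipe and Mgll, and lie in separate parts of Fabp4; all but that of Dgat2 have a reading frame free of stop codons. Positions are those of mm7, the build in the array files, and capitals mark the first stop codon of the last frame of the Dgat2 probe to meet one.
Dgat1, chr15:76585251-76585397, minus strand: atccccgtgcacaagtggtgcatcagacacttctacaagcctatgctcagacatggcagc
Dgat2, chr7:95186444-95186503, minus strand: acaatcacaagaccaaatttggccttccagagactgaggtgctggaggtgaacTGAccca
Lipe, chr7:22170761-22173014, minus strand: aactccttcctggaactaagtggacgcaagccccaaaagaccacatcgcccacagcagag
Mgll, chr6:88898474-88900777, plus strand: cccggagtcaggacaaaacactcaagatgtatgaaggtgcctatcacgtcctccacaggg
Fabp4, chr3:10212718-10213447, minus strand: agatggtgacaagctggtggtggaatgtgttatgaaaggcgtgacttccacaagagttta
Fabp4, chr3:10216627-10216686, minus strand: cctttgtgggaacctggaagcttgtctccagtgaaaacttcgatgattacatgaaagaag
The Dgat1, Lipe and Mgll probes and the first of Fabp4 span 147, 2254, 2304 and 730 bases of the genome, so each crosses an intron. Whether the other probes fall in coding exons or untranslated regions was not examined. No stretch longer than 7 bases was shared between probes of different Fabp genes, and none longer than 9 between probes of any pair of the 10 genes.

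Dgat2 stood far toward oligodendrocytes and Dgat1 did not differ by more than its spread. On the brightest probe of Dgat2, the normalised intensity was 26077 in oligodendrocytes and 1419 in astrocytes on replicate 1, and 32361 against 1652 on replicate 4. The groups do not overlap, and oligodendrocytes were high on both arrays. The log2 ratio was 4.25 ± 0.065 (SD, n = 2), or 19.0-fold, the 7th largest toward oligodendrocytes of all genes tested. The other probes of Dgat2 read 2.79 ± 0.35 and 2.31 ± 0.035 (SD, n = 2), the latter on the sequence printed above that ends past the stop codon. Both are dimmer: their astrocyte intensities were 311 and 157 on replicate 1. An offset of 50 added to every signal pulls the ratios of dim probes toward 0; with an offset of 10 these probes read 2.97 and 2.69, and the brightest 4.30. All 3 probes pointed to oligodendrocytes, but the size depends on the probe, and their mean was 3.11.

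Dgat1, the other enzyme of the same step, gave 528 in oligodendrocytes and 485 in astrocytes on replicate 1 and 498 against 546 on replicate 4. The groups overlap, and the arrays point in opposite directions. The log2 ratio was -0.0047 ± 0.18 (SD, n = 2), and the second probe read -0.079 ± 0.082. Set to the spike-ins, Dgat1 stood at -0.71, as far from 0 as the median of all genes, and was called higher in astrocytes.

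**Figure D1:**
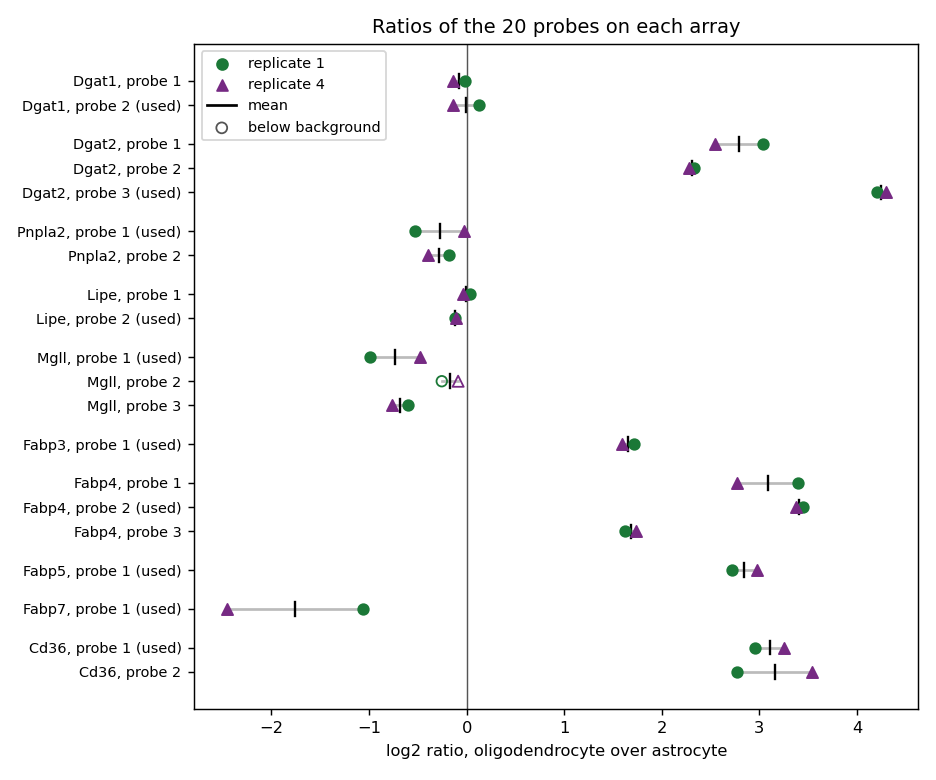
Log2 ratio of oligodendrocyte over astrocyte (horizontal axis) for each of the 20 probes, with replicate 1 as circles, replicate 4 as triangles and the mean as a bar; "used" marks the brightest probe of each gene, and open symbols a probe not well above background. The probes of Dgat2, Fabp3, Fabp4, Fabp5 and Cd36 lie to the right of 0 on both arrays, and the arrays are farthest apart for Fabp7, at -1.06 and -2.45.

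The genes whose ratios on both arrays lay nearest to those of Dgat2, by Euclidean distance over the 2 arrays, were Mag at a distance of 0.21, Aatk at 0.26, Tppp at 0.30 and Ddc at 0.37. Mag is an adhesion protein of myelin and Tppp a tubulin polymerisation protein of oligodendrocytes. Aatk is a membrane kinase and Ddc the decarboxylase that makes dopamine and serotonin. Their log2 ratios were 4.13, 4.08, 4.22 and 3.99. With 2 arrays, likeness of this kind says only that the ratios are of similar size.

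None of the lipases stood on the oligodendrocyte side. Pnpla2, the enzyme that opens triglyceride breakdown, had an intensity of 4481 in oligodendrocytes and 6474 in astrocytes on replicate 1, and 5147 against 5228 on replicate 4. The groups do not overlap, though on replicate 4 the cell types were nearly level. Its log2 ratio was -0.28 ± 0.36 (SD, n = 2), not called, and its second probe read -0.29 ± 0.15.

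Lipe, hormone-sensitive lipase, was dim: 194 against 211 on replicate 1 and 171 against 185 on replicate 4, oligodendrocytes first. The groups overlap across arrays, and the log2 ratio of -0.12 ± 0.0062 (SD, n = 2) was not called. The second probe read -0.0047 ± 0.051.

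Mgll was the lipase with the largest ratio. Its intensity was 6577 in oligodendrocytes and 13073 in astrocytes on replicate 1 and 7779 against 10794 on replicate 4. Astrocytes were high on both arrays and the groups do not overlap. The log2 ratio was -0.73 ± 0.37 (SD, n = 2), or 1.66-fold higher in astrocytes, and the probe printed above, which crosses an intron, read -0.68 ± 0.11. The third probe, drawn from a testis cDNA and lying upstream in the gene, was not well above background in either cell type. With median centring in place of loess the mean was -0.81 and was not called.

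The fatty acid binding proteins split, with 3 on the oligodendrocyte side and Fabp7 on the other. Fabp4 gave 9583 in oligodendrocytes and 878 in astrocytes on replicate 1 and 9442 against 913 on replicate 4. Oligodendrocytes were high on both arrays, with no overlap. The log2 ratio was 3.41 ± 0.055 (SD, n = 2), or 10.6-fold. The probe at chr3:10212718-10213447 read 3.09 ± 0.44, while the one at chr3:10216627-10216686, farthest upstream in the gene, read 1.68 ± 0.074. That probe was dim, at 101 and 88 in astrocytes, and read 2.34 with an offset of 10.

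Fabp5 gave 2019 in oligodendrocytes and 306 in astrocytes on replicate 1 and 2324 against 296 on replicate 4. Again the groups did not overlap, and the log2 ratio was 2.85 ± 0.18 (SD, n = 2), or 7.19-fold, on its 1 probe. Fabp3 gave 3186 and 971 on replicate 1 and 2986 and 989 on replicate 4. Its log2 ratio was 1.65 ± 0.086 (SD, n = 2), or 3.15-fold, the smallest of the 5 genes on this side.

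Fabp7 was by intensity among the brightest genes on the arrays, with 58 genes brighter. Oligodendrocytes gave 65059 on replicate 1 and 28378 on replicate 4, and astrocytes 135364 and 155308. Astrocytes were high on both arrays, and the oligodendrocyte samples differed from each other by 2.29-fold while the astrocyte samples differed by 1.15-fold. The log2 ratio was -1.06 on replicate 1 and -2.45 on replicate 4, a mean of -1.75 ± 0.99 (SD, n = 2). Only 20 of the 21893 genes tested, Fabp7 among them, had an SD as large. Among the 644 genes brighter than Fabp7 or no more than 2 log2 units dimmer there were 4, again counting Fabp7. The median SD of those 644 was 0.20. The direction held on both arrays, but the size of the Fabp7 ratio rests on which array is read. The arrays are dye swapped, and in each cell type the higher Fabp7 intensity was the one in Cy5. Array, sample and dye cannot be told apart here.

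Cd36 gave 8184 in oligodendrocytes and 1052 in astrocytes on replicate 1 and 10069 against 1054 on replicate 4. The groups do not overlap, and the log2 ratio was 3.11 ± 0.21 (SD, n = 2), or 8.62-fold. Its second probe read 3.16 ± 0.54.

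In all, 5 of the 10 genes were called higher in oligodendrocytes and 2 higher in astrocytes, 7 in either direction, beside 41.2% of all genes tested. Since the ratio chose the genes, calls of these 10 are description only, here and for single genes. Nothing is read from the difference in share. Their log2 ratios had a median of 0.82, against -0.0040 for all genes. The 5 genes higher in oligodendrocytes kept that side under all 12 alternative settings tried. With spike-in scaling they ranged from 0.95 for Fabp3 to 3.54 for Dgat2. Not all 12 are separate checks, since changes to the prior and to the filters on probes left these ratios as they were. The authors' value table repeats the ratios of the scanner software, Feature Extraction. With median centring 6 of the 10 were called, beside 13.4% of all genes, and with spike-in scaling all 10, beside 88%.

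**Figure D2:**
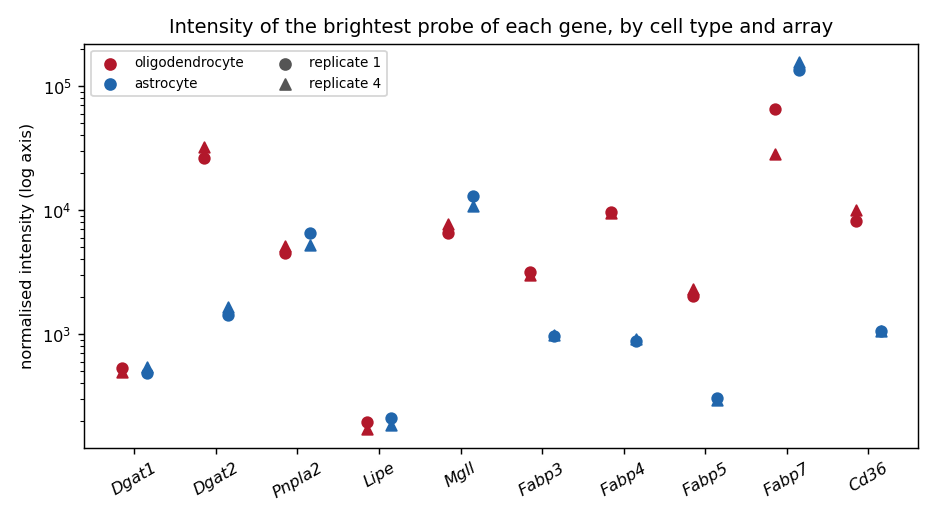
Normalised intensity on a log axis of the brightest probe of each of the 10 genes, with oligodendrocytes in red, astrocytes in blue, circles for replicate 1 and triangles for replicate 4. Levels compare cell types within a gene and not genes with each other; Dgat2 stands at 26077 and 32361 in oligodendrocytes against 1419 and 1652 in astrocytes.

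Markers of other cell types were read beside these genes. Of 10 microglia and macrophage markers, 9 were called higher in oligodendrocyte cultures. The log2 ratios of the 10 had a median of 1.31, from 0.27 for Itgam, not called, to 2.63 for Trem2. Their summed intensity was 161757 to 201535 in oligodendrocyte samples and 47138 to 50006 in astrocyte samples, and all 10 were above background in every channel. The ratios of Fabp4 (3.41), Fabp5 (2.85) and Cd36 (3.11), genes that macrophages are known to make, were larger than those of all 10 markers. The part of microglia in these ratios was not tested. In bulk RNA, fewer cells of a type and less RNA per cell cannot be told apart.

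Of 9 endothelial markers tested, limma called 3 toward oligodendrocytes and 1 toward astrocytes (median 0.051). Their summed intensity was 2996 to 3039 in oligodendrocytes and 2534 to 2742 in astrocytes. Of the adipocyte markers, Adipoq, Lep and Cfd were not well above background in either cell type. Among the 4 that were, only Cidea was called, and it was higher in astrocytes. Of 8 pericyte and fibroblast markers, 3 were called in each direction, with summed intensities of 66534 to 66780 in oligodendrocyte samples and 37150 to 41024 in astrocyte samples, and 7 were above background in every channel. The collagen genes Col1a1 (2.69) and Col1a2 (2.49) were the markers of this list farthest toward oligodendrocyte cultures, and Kcnj8 (-1.88) the farthest toward astrocytes; their part in the ratios of the genes higher in oligodendrocytes was not tested. Ependymal markers, all 4 tested, lay toward astrocyte cultures (median -3.39), with summed intensities of 82294 to 96576 against 6953 to 10757; their part in the ratios of Fabp7 and Mgll was not tested. The 5 precursor markers (median 2.48) and 6 of 7 neuronal markers (median 1.95) were called toward oligodendrocyte cultures.

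Fabp4 and Fabp5 are neighbours in a cluster of fatty acid binding protein genes on mouse chromosome 3, in the order Fabp5, Pmp2, Fabp9, Fabp4, Fabp12. Pmp2, the P2 protein of peripheral myelin, was called higher in oligodendrocytes. It was not well above background in astrocytes on either array, so its ratio is imprecise. Its own astrocyte signal exceeds the lowest signal of probes well above background. Taken against that signal, Pmp2 was on average 1.46-fold higher (0.54 ± 0.077 on the log2 scale, SD, n = 2), which is not a lower bound. The value depends on the background: it was 1.09 with an offset of 10 and 2.75 with Feature Extraction's ratios, where Fabp5 read 3.20 and Fabp4 3.57. Whether Pmp2 differs from its neighbours is therefore not settled by these arrays. Fabp9 was not well above background, and Fabp12 stood at 0.014 ± 0.078. Outside the cluster, Pag1 stood at 0.19 on the one side and Impa1 at -0.0025 ± 0.48 on the other. On chromosome 7 the gene next to Dgat2 is Mogat2, which makes diacylglycerol from monoacylglycerol and is related to Dgat2 by sequence. Mogat2 stood at -2.31 ± 0.029 (SD, n = 2), opposite to its neighbour, and Uvrag, on the other side, at 0.90 ± 0.062.

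**Figure D3:**
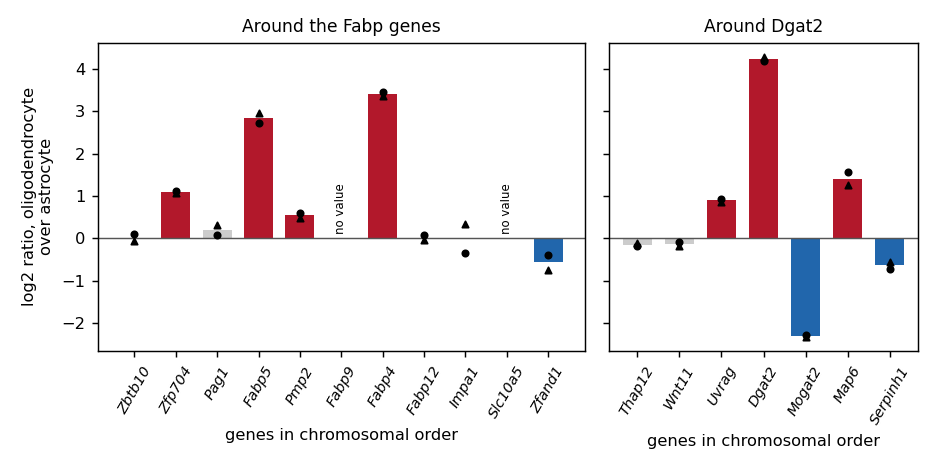
Mean log2 ratio of oligodendrocyte over astrocyte (bars) and the values of replicate 1 (circles) and replicate 4 (triangles) for genes in chromosomal order around the Fabp genes of chromosome 3 and around Dgat2 on chromosome 7; red and blue bars were called by limma and grey bars were not. Fabp5 and Fabp4 stand at 2.85 and 3.41 with Pmp2 between them at 0.54, a value that was 2.75 with Feature Extraction's ratios and rests on an astrocyte signal not well above background, and Dgat2 at 4.25 lies beside Mogat2 at -2.31.

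The other genes of lipid storage and use showed whether the surrounding pathway ran the same way. In 7 lists, 105 genes were tested. Limma called 32 higher in oligodendrocytes and 42 higher in astrocytes, beside 18.5% and 22.6% of all genes. With spike-in scaling it called 13 and 74, beside 5.75% and 82.3% of all genes. No list is given a test of its own.

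Upstream of Dgat1 and Dgat2, glycerolipid synthesis went both ways. Of 17 genes tested, limma called 6 toward oligodendrocytes and 5 toward astrocytes, beside 18.5% and 22.6% of all genes. The list median was 0.12, and with spike-in scaling the split turned to 1 and 11. Gpd1, which makes the glycerol 3-phosphate backbone, stood at 3.07 ± 0.074 (SD, n = 2), or 8.37-fold higher in oligodendrocytes; its second, dim probe read 1.70. On the astrocyte side were Mogat2 and Lpin3, a phosphatase that makes diacylglycerol, at -1.70 ± 0.10. With Feature Extraction's own ratios Lpin3, which is dim in oligodendrocytes, read -2.32. Of the acyltransferases that add the first fatty acid, Gpat3 (-1.50) and Gpam (-1.25) were called higher in astrocytes and Gpat4 (0.38) higher in oligodendrocytes. Gpat2 (0.31) was not called. The dimmer probes of Gpat4 read 0.33 and -0.17, so its direction depends on the probe. Of the family that adds the second, Agpat5 (0.73), Agpat4 (0.60), Agpat2 (0.59) and Agpat1 (0.56) were called higher in oligodendrocytes and Agpat3 (-0.51) higher in astrocytes. With spike-in scaling, which lowers every ratio by 0.71, the ratios of Gpat4, Agpat1, Agpat2 and Agpat4 fall below 0.

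Genes linked to lipid droplets divided by member. Of 18 tested, 7 were called in each direction, with a median of -0.18, beside 18.5% and 22.6% of all genes. With spike-in scaling 3 were called toward oligodendrocytes and 11 toward astrocytes. Pnpla3, a droplet relative of Pnpla2, stood at 3.26 ± 0.43 (SD, n = 2), or 9.57-fold higher in oligodendrocytes. It was dim in astrocytes, at 114 and 92, and its ratio was 3.94 with an offset of 10 and 4.76 with Feature Extraction's ratios. Plin5, a perilipin of tissues that burn fat, stood at -2.86 ± 0.35 and Cidea, which helps droplets fuse, at -2.14 ± 0.063, both higher in astrocytes. Plin5 was dim in oligodendrocytes, at 178 and 207, and read -3.39 with Feature Extraction's ratios. Of the perilipins, which coat droplets, Plin2 (1.11) was higher in oligodendrocytes, Plin3 (-0.55), Plin4 (-1.05) and Plin5 higher in astrocytes, and Plin1 (-0.17) not called. The activator of Pnpla2, Abhd5, at 0.86, and its inhibitor G0s2, at 1.20, were both called higher in oligodendrocytes, beside Pnpla2 itself at -0.28.

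Genes of fatty acid uptake and activation were equally split, 5 to 5 of 15 tested, with a median of -0.058. Of all genes, 18.5% were called toward oligodendrocytes and 22.6% toward astrocytes. With spike-in scaling the list split was 3 to 10. Lpl, the lipase that frees fatty acids from lipoproteins outside the cell, stood at 3.61 ± 0.62 (SD, n = 2), or 12.2-fold higher in oligodendrocytes, with 4.05 on replicate 1 and 3.18 on replicate 4; its second probe read 2.44. Macrophages make Lpl too, and the microglia markers given above lay on the same side. The part of microglia in the Lpl ratio was not tested. Of the enzymes that join fatty acids to coenzyme A, Acsl1 stood at 2.40 ± 0.17, with dimmer probes at 1.47 and 1.52, and Acsl6, the brain form, at -2.46 ± 0.037, with further probes from -2.13 to -0.90.

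Genes of fatty acid oxidation leaned to astrocytes. Of 20 tested, 17 (85.0%) were called higher in astrocytes and 0 in oligodendrocytes, beside 22.6% and 18.5% of all genes, with a list median of -0.71 against -0.0040. Acaa2, the thiolase of the last step, stood at -1.35 ± 0.35 (SD, n = 2), the electron carrier Etfa at -1.32 ± 0.080 and the medium-chain dehydrogenase Acadm at -1.22 ± 0.047. Cpt1a, which admits long-chain fatty acids to mitochondria, stood at -1.04. The genes not called were Etfb (-0.32), Hadha (-0.24) and Cpt1b (0.17). With median centring 6 of the 20 were called, all toward astrocytes (median -0.79), beside 8.42% of all genes called that way. With spike-in scaling all 20 were called toward astrocytes, but so were 82.3% of all genes. Feature Extraction's own ratios gave 13, beside 22.65% of all genes. The ependymal markers given above lay on the astrocyte side too, and their part was not tested.

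Of 14 other lipases and enzymes of the endocannabinoids, 7 were called toward oligodendrocytes and 2 toward astrocytes, beside 18.5% and 22.6% of all genes, with a median of 0.39. With spike-in scaling the split turned to 5 and 7, with a median of -0.32. Lipa, the acid lipase of lysosomes, stood at 2.20 ± 0.0052 (SD, n = 2), although its dim second probe read 0.78. Ddhd1, a phospholipase, stood at 1.54 ± 0.058, with probes at 0.58 and 0.43 besides, and Daglb, which makes the substrate of Mgll, at 1.33 ± 0.35 with a second probe at 0.57. Pnpla6 stood at -0.87 ± 0.37 and was not called with median centring. Abhd12 (1.29), which like Mgll breaks down 2-arachidonoylglycerol, and the microglial cannabinoid receptor Cnr2 (1.25) were called higher in oligodendrocytes, while Mgll itself stood at -0.73.

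Beyond the Fabp genes, 4 of the 8 related carriers tested were called, beside 41.2% of all genes. The retinol carriers Rbp7 (-0.70 ± 0.020, SD, n = 2) and Rbp2 (-0.60 ± 0.065) stood toward astrocytes and were dim, reading -1.51 and -1.19 with Feature Extraction's ratios, and Pmp2 is given above. With spike-in scaling Pmp2 turned to -0.16. Fabp1 and Fabp6, like Fabp9, were not well above background.

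Regulators of lipid genes were called in both directions, 6 toward oligodendrocytes and 3 toward astrocytes of 13 tested, with a median of 0.068. Of all genes, 18.5% and 22.6% were called so. With spike-in scaling the split turned to 1 and 8, with a median of -0.64. Cebpd, a factor of adipocyte differentiation, stood at -2.96 ± 0.023 (SD, n = 2), and Ppargc1a, a coactivator of mitochondrial genes, at -1.77 ± 0.31. Srebf1, which drives fatty acid synthesis, stood at -2.15 on replicate 1 and -1.85 on replicate 4. Cebpa stood at 1.36 ± 0.35, with a dim probe at 0.64, and Pparg, the receptor that drives Fabp4 and Cd36 in adipocytes and macrophages, at 0.84. Among the called genes picked from the lists by size of ratio, the largest limma adjusted p was 0.0047, for Pmp2. Picking called genes by size keeps this value small, so it adds no support.

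**Figure D4:**
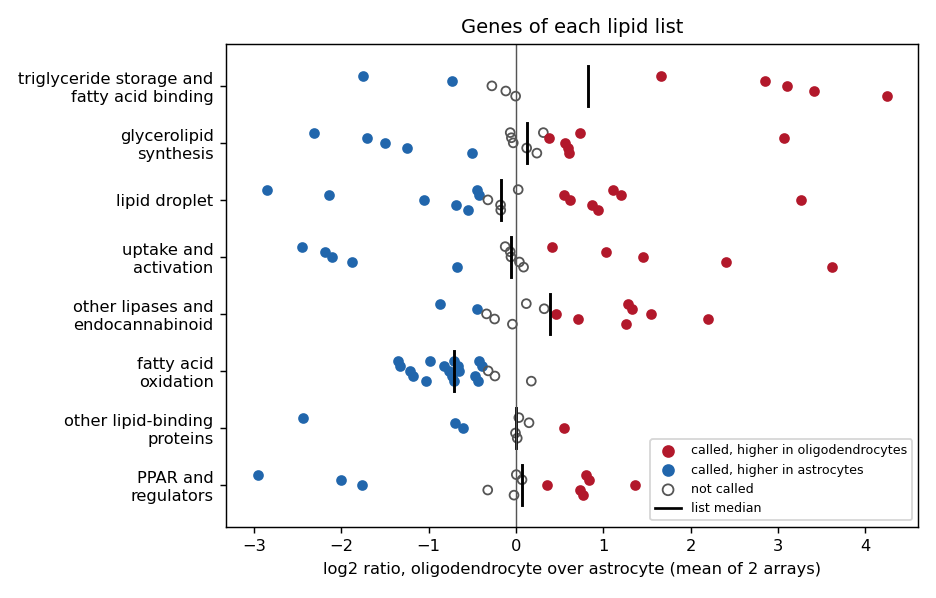
Mean log2 ratio of oligodendrocyte over astrocyte for every tested gene of the lists, 1 point a gene, red or blue where limma called it and open where it did not, with the list median as a bar. Fatty acid oxidation genes lie to the left with 17 of 20 called higher in astrocytes, and the other lists spread to both sides.

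Promoter windows of 300 bases, from 250 before to 50 after the start of transcription, were taken from RefSeq tables of GRCm38.p6. They matched 6 of the 10 genes with 8 windows: Pnpla2, Lipe (2 windows), Mgll (2 windows), Fabp3, Fabp7 and Cd36. Dgat1, Dgat2, Fabp4 and Fabp5 were not matched. The windows of Cd36 and Fabp7 are printed because these genes lie on opposite sides in the arrays and are the matched genes with the largest ratios in each direction. Capitals mark matches on either strand to TATAAA (the core promoter box), CCAAT (the motif of NF-Y), GGGCGG (the motif of Sp1), AGGTCA (the motif of nuclear receptors), ACAAAG (the motif of Sox factors) and CACGTG (the palindromic E-box); matches may overlap.
Cd36, chr5:17835847-17836146, minus strand: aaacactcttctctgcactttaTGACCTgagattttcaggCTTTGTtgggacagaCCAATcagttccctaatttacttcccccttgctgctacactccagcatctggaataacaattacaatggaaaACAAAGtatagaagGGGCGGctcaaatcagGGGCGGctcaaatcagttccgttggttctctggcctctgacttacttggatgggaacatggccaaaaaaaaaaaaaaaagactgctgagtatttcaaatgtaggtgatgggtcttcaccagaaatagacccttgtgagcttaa
Fabp7, chr10:57784673-57784972, plus strand: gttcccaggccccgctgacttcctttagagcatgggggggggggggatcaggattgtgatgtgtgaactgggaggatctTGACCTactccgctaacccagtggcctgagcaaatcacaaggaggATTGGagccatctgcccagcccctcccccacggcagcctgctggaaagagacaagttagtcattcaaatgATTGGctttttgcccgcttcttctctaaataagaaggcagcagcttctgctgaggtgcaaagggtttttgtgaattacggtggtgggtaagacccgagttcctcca
The windows of both genes held AGGTCA, which 16.3% of all 32851 windows hold, and CCAAT, which 37.4% hold. No other of the 8 windows held either motif. ACAAAG stood in that of Cd36 only, against 18.7% of all windows, GGGCGG in 5 of the 8 (35.7% of all), CACGTG in 2 (7.15% of all) and TATAAA in 0 (13.6% of all). A match describes letters and not binding.

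**Figure D5:**
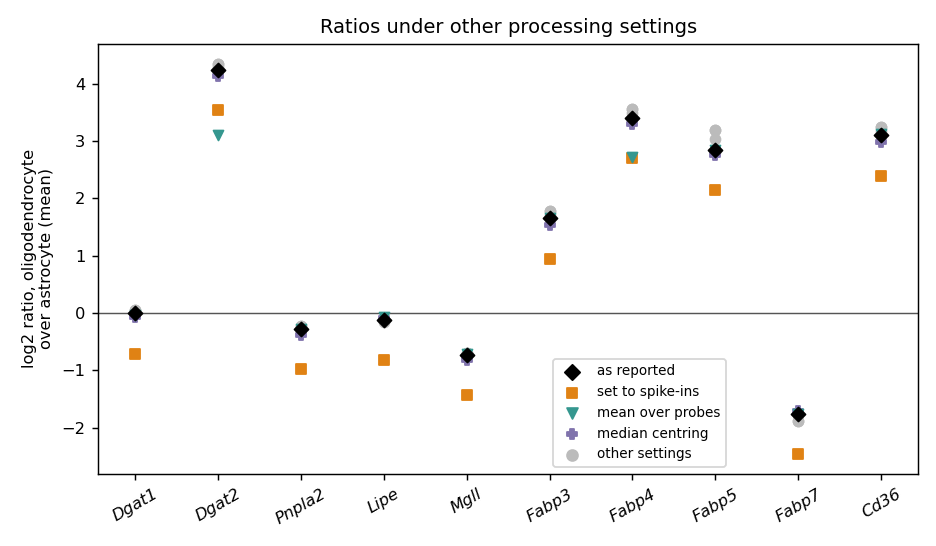
Mean log2 ratio of oligodendrocyte over astrocyte for each of the 10 genes as reported (black diamonds) and under 12 other settings; orange squares set the ratios to spike-ins, green triangles average the probes of a gene and purple crosses use median centring. Spike-in scaling lowers all 10 genes alike, and averaging probes lowers Dgat2 from 4.25 to 3.11 and Fabp4 from 3.41 to 2.73.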

How the data were processed

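The files are scanner output of Feature Extraction 9.5.3.1. Mean spot intensity and local background, as deposited, were used without normalisation by the authors. The file's log10 ratio (Cy5 over Cy3), per the file headers, is already corrected for background and dye. The authors' value table repeats it (largest difference 0), with a median of 0 per array and the swapped array left as scanned.

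In limma 3.58.1 (R 4.3.3), signals were corrected by normexp (offset 50), ratios were normalised by loess with controls at weight 0, then all turned to oligodendrocyte over astrocyte. Across genes, which are not replicates, the arrays had a Pearson r of -0.93 before turning. Normalised intensities were also scaled by Aquantile. Probes needed a signal well above background on both arrays in at least 1 cell type, and no outlier mark, which left 32561 of 41174 and 19 of the 20 described. The brightest stood for its gene. Genes were tested by lmFit and eBayes, with Benjamini-Hochberg adjustment over 21893 genes. On simulated data (20 draws, 200 changed genes), at least 98.0% of 2-fold changes were called, and 11.1% of calls were false where 5% is nominal. The draws took their spread from the fitted prior and changed 200 of 21893 genes, whereas 9015 genes were called here. Both shares hold for that setting and cannot be carried over to the calls given here. Each gene has 1 residual degree of freedom. Of the gene spots, RefSeq tables matched 24913 through their accession, 6857 through the symbol and 3127 through a former symbol; the other 8482 keep the array's own names. Slide and scan are common to the arrays and form no batch.

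The genes and lists were chosen with earlier results of these data known. From each list the text names the 3 called genes with the largest ratios and, if these agree in direction, the largest called in the other; further list genes and neighbours were named after their values were seen. One gene picked by this rule is not reported here. For Dgat2 it names the 4 nearest genes. Besides leaving out either array, 12 alternatives were run. They changed the background (none subtracted, offset 10), the source of ratios (Feature Extraction, value table), the centring (median, spike-ins, between-array scaling), the probes kept (unfiltered, above background in both cell types, outliers retained), the summary (mean over probes) and the prior (trended, robust).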

Additional observations from a re-analysis of the deposited data

How the results depend on the processing

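The count of all genes called by limma was 9015, 2928 with median centring and 19275 with spike-in scaling, and lay within 1.5 times of the reported count under the other 10 settings. Of the lipid list genes 74 were called, and 33 with median centring, beside 41.2% and 13.4% of all genes. By list, median centring took the calls in glycerolipid synthesis from 11 to 5, in lipid droplets from 14 to 5, in other lipases from 9 to 5, in fatty acid oxidation from 17 to 6, in related carriers from 4 to 1 and in regulators from 9 to 4. Spike-in scaling took related carriers to 7, beside 88% of all genes. Of the 10 triglyceride storage and fatty acid binding genes, 7 were called as reported, 6 with median centring (without Mgll) and all 10 with spike-in scaling, 5 in each direction. Of all genes, spike-in scaling called 5.75% toward oligodendrocytes and 82.3% toward astrocytes. Dgat1 had a mean above 0 under 4 of the 12 settings and below 0 under 8. Among the 24 list genes picked by the naming rule, 282 values over the 12 settings kept their direction and call and 5 did not. These were Pmp2, which turned to -0.16 with spike-in scaling, and Pmp2, Pnpla6, Rbp2 and Rbp7, not called with median centring. The cause of these changes was not tested. Pmp2 had no value where probes had to be above background in both cell types. Settings that left a ratio as it was count among the 282. With 1 array left out no test is possible; the ratios of the 24 list genes kept their direction on each array. Dim signals limit the precision of Lipe, Lpin3, Plin5, Pnpla3, Rbp2, Rbp7 and Pmp2.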
